A study of Mus musculus with 5 samples.

Results

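The BCL2 family of apoptosis regulators was followed over 5 arrays of mouse B lineage cell lines. Members were taken by symbol from a list of 9 genes, and every probe set annotated to one of them alone was used. This gave 14 of the 12488 probe sets in the table, for 8 of the 9 genes (8251 distinct symbols are on the array). There were 6 for the survival members Bcl2, Bcl2l1 and Mcl1, and 8 for the death members Bik, Bak1, Bad, Bid and Bcl2l11. No probe set used here carried the symbol Bax.

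Polyadenylated RNA was hybridised to Affymetrix expression arrays, 1 array per line. 4 lines derive from AxJ, a plasma cell line, and each had been stably transfected: with empty vector, to overexpress hnRNP-H, or to overexpress hnRNP-F (subclones B5 and D6). These are RNA-binding proteins that act on splicing and polyadenylation. The remaining array held A20, a memory B cell line by its label, with no transfection named. All lines grew in log phase in IMDM with 5% FCS, and the AxJ lines also received 1 mg/ml G418. The hnRNP-F and hnRNP-H clones had been picked for strong overexpression on western blots, and each array is 1 clone, so clone and transgene cannot be told apart. The empty vector and hnRNP-H arrays together are called the AxJ controls. No line was measured more than once.

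Proteins of the BCL2 family decide whether the outer mitochondrial membrane is opened to release cytochrome c, which starts the caspase cascade. Survival members such as BCL2, BCL-XL (from Bcl2l1) and MCL1 hold the pore-forming effectors BAK and BAX in check. The BH3-only members BIM (from Bcl2l11), BID, BAD and BIK carry death signals, either by binding the survival members or by engaging the effectors. MCL1 is known as a survival factor of plasma cells, and BIM as a killer of self-reactive and spent lymphocytes.

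Marker levels followed the labelled cell types. The deposited intensities of 9 B cell markers summed to between 1974 and 3794 in the AxJ lines and to 10067 in A20, and 8 plasma cell markers to between 16235 and 18252 against 2546. Such sums are led by bright probe sets, those of Igha, Jchain and Cd74 among them. By gene, all 9 B cell markers were higher in A20 than in empty vector and hnRNP-H, 6 at a limma adjusted p under 0.05. All 8 plasma cell markers were lower, 5 of them under that threshold. Of 5 T cell markers, 4 read under 21.8 on every array, Cd3e and Cd8a among them. A probe set under that intensity was treated as dim. Among the markers that passed, Cd22, Spib and H2-Aa read under 21.8 in all 4 AxJ lines and were kept through A20 alone. Prdm1 and Fkbp11 read under it in A20 and were kept through the AxJ lines. The filter thus fixed the direction of these calls. Median intensities ran from 33.9 (A20) to 41.7 (empty vector). Gapdh control probes at the 5' end read 0.212 (empty vector), 0.181 (B5), 0.866 (hnRNP-H), 0.683 (D6) and 0.384 (A20) times those at the 3' end, which falls where labelled RNA is shortened.

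Levels below are deposited intensities in arbitrary units. They order the arrays for a probe set and cannot be set against another probe set. Differences compare quantile-normalised values as log2(intensity + 6.55), with the standard error (SE) of a limma fit over all 9107 probe sets kept, and adjusted p-values are Benjamini-Hochberg over those. The hnRNP-F comparison sets 2 clones against the 2 AxJ controls. The A20 comparison sets 1 array against the same 2 controls, so the comparisons share them and A20 has no replicate check. A20 and the AxJ lines differ in origin, stage, transfection and G418, and these cannot be told apart. Of the 14 member probe sets, 12 were bright enough to be kept. The 2 left out, 98868_at for Bcl2 and 99026_at for Bcl2l1, read at most 22.2 and 8.34 on any array.

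**Figure D1:**
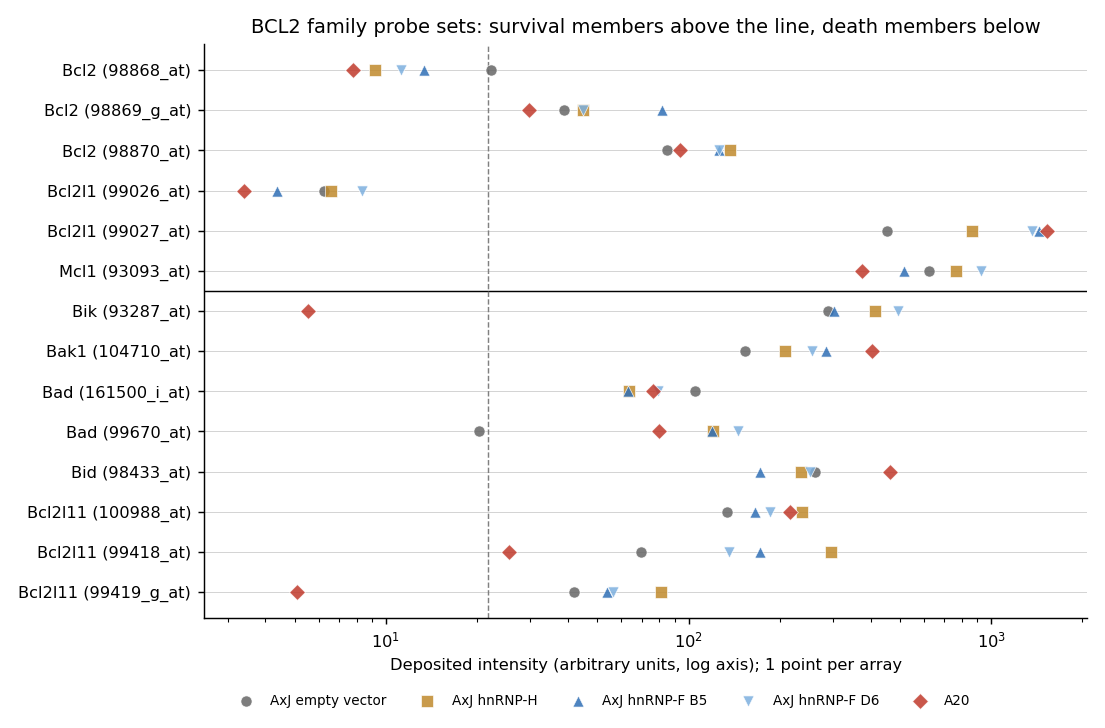
Deposited intensity (log axis, arbitrary units) of each of the 14 member probe sets, 1 point per array. Survival members lie above the line and death members below it. The dashed line marks 21.8, a limit that was applied to normalised values. Bik reads 5.52 in A20 and at least 289 in the 4 AxJ lines, while Bcl2l1 (99027_at) runs from 454 in empty vector to 1533 in A20.

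Of the 12 probe sets, 1 passed the test in A20, the BH3-only gene Bik, which read 5.52 there and 289 to 492 in the AxJ lines (1 of 12, against 5.89% of all probe sets), and none passed in the hnRNP-F clones (0 of 12 by limma, against 0.0110%). Among the survival members, Bcl2l1 was the one with higher readings in A20 and in both hnRNP-F clones. Probe set 99027_at read 454 with empty vector, 863 under hnRNP-H, 1443 in clone B5, 1368 in clone D6 and 1533 in A20. Both clones lay above both controls, and A20 lay just above the clones. Their log2 gap to the controls was 1.15 (SE 0.32, limma adjusted p = 0.788), a 2.22-fold higher level. A20 differed by 1.33 (SE 0.39, limma adjusted p = 0.0911), a 2.52-fold higher level. Neither passed. In a culture, fewer cells with a transcript and less of it per cell cannot be told apart. Against all 4 AxJ lines A20 differed by 0.76 (limma adjusted p = 0.523). With 1 control left, A20 differed by 1.78 without hnRNP-H and by 0.88 without empty vector. The gap of the clones was 1.59 without hnRNP-H and 0.70 without empty vector.

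Alternative splicing of Bcl2l1 gives the long survival form BCL-XL and a short form that favours death, and hnRNP-F and hnRNP-H are known to act on that choice. The probe set was not matched here to either form, so its level says nothing on their balance.

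Mcl1 was lowest in A20. It read 623 with empty vector, 765 under hnRNP-H, 516 in clone B5, 923 in clone D6 and 375 in A20, with the clones on either side of the controls. A20 differed by -0.95 (SE 0.39, limma adjusted p = 0.220), a 1.94-fold lower level that did not pass. The clones differed from the controls by 0.02 (95% interval -0.70 to 0.74).

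Bcl2, the founding survival member, did not pass in either comparison. Probe set 98870_at read 84.6 with empty vector, 137 under hnRNP-H, 126 in clone B5, 126 in clone D6 and 93.5 in A20. Empty vector and A20 were the low pair. The log2 difference of A20 was -0.16 (95% interval -1.12 to 0.79) and that of the clones 0.26 (95% interval -0.52 to 1.04). Probe set 98869_g_at, from the same sequence entry, read 38.8, 44.9, 81.9, 44.9 and 29.8 in the same order of arrays, so its one high value lay in B5. Its differences were -0.18 for A20 and 0.54 for the clones.

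**Figure D2:**
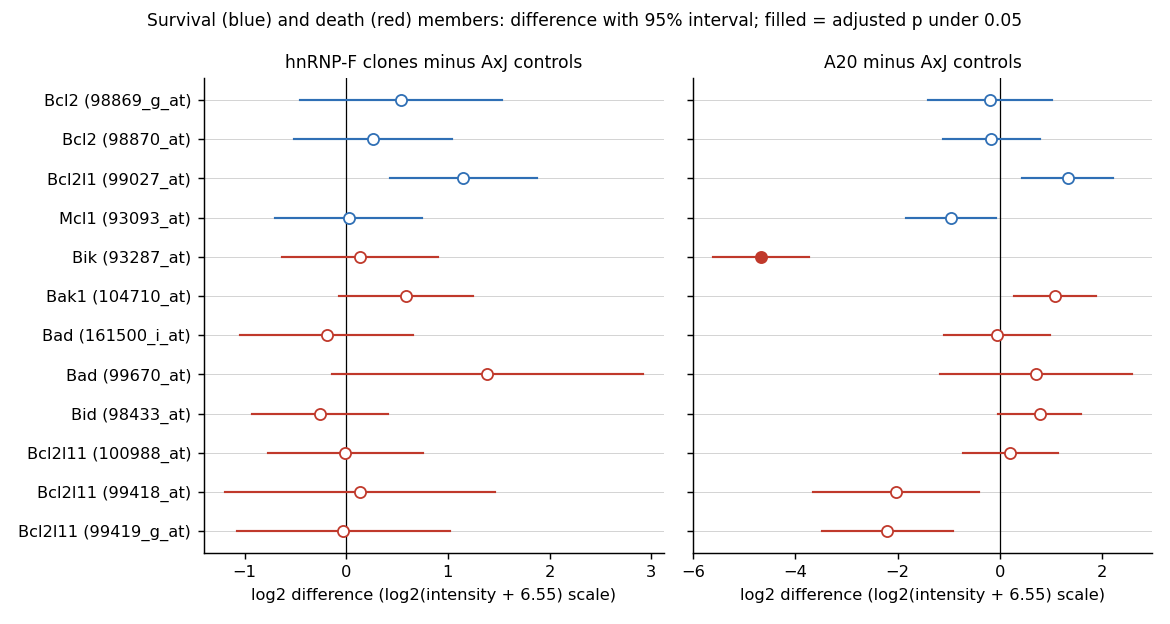
Log2 difference (x axis) with its unadjusted 95% interval for the 12 member probe sets kept, in the hnRNP-F clones (left) and in A20 (right), each against the AxJ controls; survival members are blue, death members red, and a filled point passed the adjusted threshold of 0.05. Bik in A20, at -4.67, is the filled point, and the axes of the panels differ.

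Bak1, the measured effector, was highest in A20. It encodes the pore-forming effector BAK. It read 154 with empty vector, 208 under hnRNP-H, 285 in clone B5, 256 in clone D6 and 405 in A20, so both clones lay between the controls and A20. A20 differed by 1.08 (SE 0.35, limma adjusted p = 0.127), a 2.12-fold higher level, and the clones by 0.59 (SE 0.29, limma adjusted p = 0.788). Neither passed.

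Bik was the one member that passed the test, and it was far lower in A20. Its probe set read 289 with empty vector, 412 under hnRNP-H, 302 in clone B5, 492 in clone D6 and 5.52 in A20. A20 lay far below all 4 AxJ lines. Bik encodes a BH3-only protein that resides at the endoplasmic reticulum. The log2 difference was -4.67 (SE 0.41, limma adjusted p = 0.000629, 1 array against 2). The normalised A20 value of 7.64 is under 21.8 and near the added 6.55, so the size depends on that number. Set against 21.8, which is a percentile and no measured detection limit, Bik was at least 16.3-fold lower in A20. Over 12 alternatives the log2 difference ran from -5.36 to -3.29. Over those that kept both controls, limma adjusted p ran from 8.15e-05 to 0.0201. In the clones Bik differed by 0.14 (95% interval -0.63 to 0.90). The members' share of calls in A20, 1 of 12, is near the background of 5.89%.

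Bcl2l11, the gene of BIM, gave readings that parted by probe set. Probe set 99418_at read 69.7 with empty vector, 295 under hnRNP-H, 172 in clone B5, 136 in clone D6 and 25.5 in A20. Probe set 99419_g_at, designed from the same sequence entry and so no independent measure, read 41.7, 80.9, 53.9, 56.4 and 5.07 in that order. On both, A20 was lowest and hnRNP-H highest. The log2 differences of A20 were -2.03 (SE 0.71, limma adjusted p = 0.156) and -2.20 (SE 0.56, limma adjusted p = 0.0594), and neither passed. The first is a 4.09-fold lower level, and the second, dim in A20, at least 2.54-fold against 21.8. The second passed with a pseudocount of 1 and with A20 against all 4 AxJ lines (limma adjusted p = 0.0304). It also passed under both other scalings (limma adjusted p = 0.0228 as deposited and 0.0393 after median scaling). The first passed under no alternative that kept both controls. With 1 control left, its log2 difference was -3.09 without empty vector and -1.01 without hnRNP-H.

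The remaining Bcl2l11 probe set, 100988_at, comes from another sequence entry. It read 134 with empty vector, 236 under hnRNP-H, 166 in clone B5, 186 in clone D6 and 217 in A20. In the clones the 3 probe sets differed by 0.13 (99418_at), -0.03 (99419_g_at) and -0.01 (100988_at). For 100988_at A20 lay inside the range of the AxJ lines, with a log2 difference of 0.21 (95% interval -0.72 to 1.14). BIM is made in several splice forms, and no match of its probe sets to a form was made here.

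Bid encodes the BH3-only protein that caspase-8 cleaves to link death receptors to mitochondria. It read 262 with empty vector, 236 under hnRNP-H, 172 in clone B5, 252 in clone D6 and 463 in A20. The clones and controls overlapped, and A20 stood above them. Its log2 difference was 0.79 in A20 (SE 0.36, limma adjusted p = 0.278) and -0.26 in the clones (95% interval -0.92 to 0.41), and neither passed.

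The probe sets of Bad, a BH3-only gene whose protein is held inactive by phosphorylation and 14-3-3 binding, parted on the empty vector array. Probe set 99670_at read 20.3 with empty vector, 121 under hnRNP-H, 120 in clone B5, 146 in clone D6 and 80.0 in A20. Empty vector was far below the other 4 arrays. Probe set 161500_i_at read 105, 63.8, 63.0, 79.4 and 76.5 in that order, with empty vector highest. For 99670_at the clones differed from the controls by 1.39 (SE 0.67, limma adjusted p = 0.788), but by 0.19 without empty vector. A20 differed by 0.71 (95% interval -1.16 to 2.58). With 1 control left, it differed by -0.50 without empty vector and by 1.89 without hnRNP-H. For 161500_i_at the differences were -0.19 and -0.05.

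Over the hnRNP-F clones, where 0 of 12 passed by limma, the members were also read by sign. At an unadjusted p under 0.05, 1 member probe set and 526 of all probe sets stood out, and it was that of Bcl2l1. Both clones lay above both controls for 3 of the 12, Bcl2l1, Bak1 and 99670_at for Bad, against 18.2% of all probe sets, and below both controls for 0 of 12, against 19.3%. For all 3, the empty vector array was the lowest of the 5. In the same comparison all 5 myeloid markers kept lay above 0 (median 0.74). Adgre1 read at most 5.25 in the AxJ lines and was kept through A20 alone. Lyz2 read 47.5 in B5, 1.21 in D6 and at most 5.16 in the controls, so its sign rests on B5. Myeloid intensities summed to 468 in B5 and 345 in D6, against 208 and 276 in the controls and 212 in A20. Itgam read at most 5.24 on any array. All 9 B cell markers also lay above 0 (median 0.27), and 6 of 8 plasma cell markers below 0 (median -0.22). Cd22, Spib and H2-Aa read under 21.8 in every AxJ line, so their signs (0.37, 0.06 and 0.14) rest on dim readings. The part of the myeloid, B cell and plasma cell markers in the members' differences was not tested.

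A20 was higher or lower than all 4 AxJ lines for 8 of 12 member probe sets, against 54.9% of all. It was above for 3 (26.0% of all), Bcl2l1, Bak1 and Bid, and below for 5 (28.9% of all), Bik, Mcl1, 98869_g_at of Bcl2 and both Bcl2l11 probe sets of shared origin. At an unadjusted p under 0.05, 6 member probe sets of 5 genes (Bcl2l1, Mcl1, Bik, Bak1 and the 2 of shared origin for Bcl2l11) and 1758 of all probe sets stood out in A20.

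Survival and death members were set side by side by count and median, with no test. In A20, 1 of 4 survival probe sets lay above 0 (median -0.17) and 4 of 8 death probe sets did (median 0.08), against 47.8% of all probe sets, whose median was -0.04. In the clones, 4 of 4 survival and 4 of 8 death probe sets lay above 0, against 50.6% of all probe sets, with medians of 0.40 and 0.06 beside 0.01 over all. Without empty vector these were 2 of 4 (median 0.17) and 3 of 8 (median -0.10). By gene, taking the brightest probe set of each, 4 of 5 death genes lay above 0 in A20 (median 0.71), but 2 of 5 did without the empty vector array (median -0.17). With all arrays in the fit, Bcl2l11 counts as above 0 by 100988_at, while its other probe sets lay at -2.03 and -2.20.

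**Figure D3:**
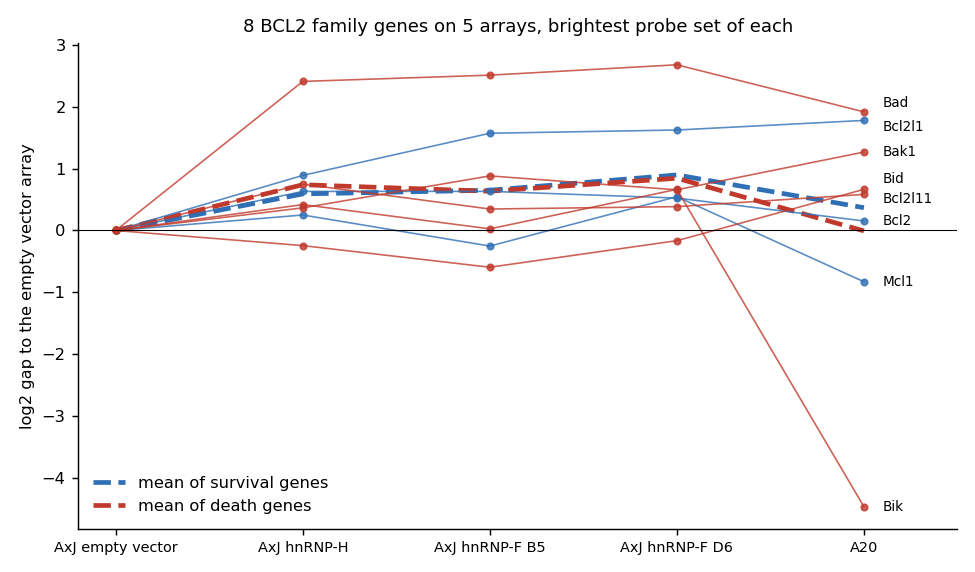
Log2 gap of each array to the empty vector array (y axis) for 8 genes, brightest probe set of each; thin lines join the 5 arrays of 1 gene (survival blue, death red) and dashed lines give the class means. In A20 the death mean is -0.01 with Bik and 1.11 without it, the member that passed. The death means rest on the Bad probe set 99670_at. With the other one they fall to between 0.00066 and 0.23 on the AxJ arrays, and the A20 mean without Bik falls to 0.53.

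The AxJ controls were also set against each other. Each was 1 array, so there is no test of their difference. hnRNP-H lay more than 2-fold from empty vector for 2 of 12 member probe sets, against 18.2% of all. These were 99670_at of Bad, higher by 2.41 on the log2 scale, and 99418_at of Bcl2l11, higher by 1.997. Empty vector was the lowest of the 5 arrays for 5 of 12 member probe sets, against 24.1% of all. Relative to empty vector, the mean of the 3 survival genes was 0.59 higher under hnRNP-H, 0.65 in clone B5, 0.90 in clone D6 and 0.37 in A20. The mean of the 5 death genes was 0.74, 0.63 and 0.84 higher in the same AxJ lines. In A20 it was -0.01, or 1.11 without Bik, the member that passed. No survival gene was left out in the same way, though the survival mean in A20 rests on Bcl2l1. The gap of Bcl2l1 was 1.78, against 0.15 for 98870_at of Bcl2 and -0.83 for Mcl1. The death means rest on 99670_at of Bad. With 161500_i_at in its place they were 0.12 under hnRNP-H, 0.00066 in clone B5, 0.23 in clone D6 and -0.47 in A20. The A20 mean without Bik was then 0.53, and -0.047 with 99419_g_at also standing for Bcl2l11.

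Clones B5 and D6 were 1 array each, so no test was made. No member probe set differed by more than 2-fold between them (0 of 12, against 12.0% of all). The widest gaps, D6 minus B5, were -0.84 for 98869_g_at of Bcl2, 0.80 for Mcl1 and 0.64 for Bik. hnRNP-H and D6, the AxJ arrays with the higher Gapdh ratios, lay above empty vector and B5 for 4 of 12 member probe sets, against 18.0% of all. These were Mcl1, Bik, 100988_at and 99419_g_at of Bcl2l11. With arrays of like Gapdh ratio taken as a block, no member passed in the clones, and Bcl2l1 differed by 1.17 (limma adjusted p = 0.596).

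Over the 6 lists of the wider death pathway, 3 of 66 genes passed in A20, near the 5.89% of all probe sets, and 0 of 66 by limma in the clones, against 0.0110%. The 3 include Bcl6, which was kept through A20 alone. Of 20 further relatives and binding partners of the family, 10 were measured. In A20 1 of them fell and none rose (median -0.09). This was Bcap31, which encodes a protein of the endoplasmic reticulum that binds BCL2 and is cut by caspase-8. It read 954 with empty vector, 1467 under hnRNP-H, 872 in clone B5, 1280 in clone D6 and 216 in A20, with A20 below all AxJ lines. Its log2 difference was -2.49 (SE 0.38, limma adjusted p = 0.0084), and the call was lost without the intensity trend (limma adjusted p = 0.0878). In the clones none of the 10 passed (median 0.23), and Bcl2l2, the survival relative BCL-W, had the widest difference at 1.08 (SE 0.45).

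Of 21 upstream regulators, 17 were kept. In A20 1 rose, the repressor gene Bcl6. The controls gave 1.57 and 6.46 against 889 for A20 (log2 difference 6.41, limma adjusted p = 0.00358). Bcl6 read under 21.8 in all 4 AxJ lines and was kept through A20 alone. The added value sets the size of its difference, from 4.66 with a pseudocount of 32 to 7.67 with 1. Myc, which drives growth and also sensitises cells to apoptosis, was the one that fell. The controls gave 1499 and 1588 against 196 for A20, and it fell by 3.01 in log2 units (SE 0.29, limma adjusted p = 0.00101). The median of the list was -0.01. In the clones none of the 17 passed (median 0.10). The widest difference was that of Il6ra, the interleukin-6 receptor, at 1.29 (SE 0.70). It read 13.3 with empty vector against 92.4 under hnRNP-H, 85.7 in clone B5, 102 in clone D6 and 49.2 in A20, again with empty vector lowest, and without that array the difference was 0.05.

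**Figure D4:**
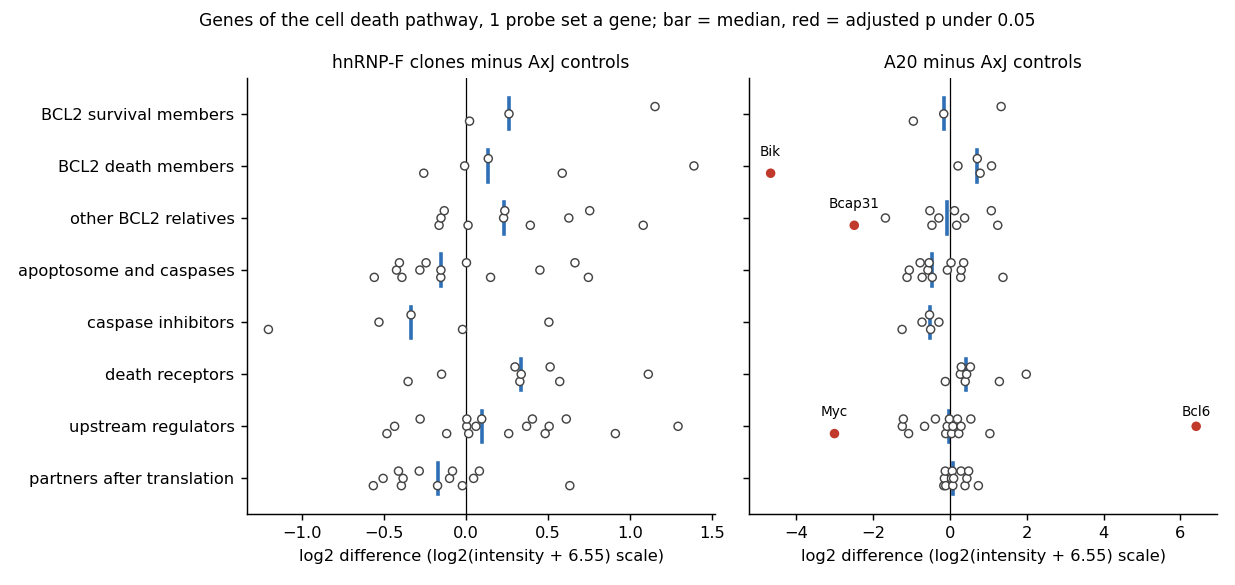
Log2 difference (x axis) of each measured gene, 1 point a gene, by list, in the hnRNP-F clones (left) and in A20 (right) against the AxJ controls; the bar is the list's median and red points passed the adjusted threshold of 0.05. Bik, Bcap31, Myc and Bcl6 are the red points in A20 (-4.67, -2.49, -3.01 and 6.41), none is red on the left, and the axes of the panels differ.

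Of 18 caspase, apoptosome and inhibitor genes 0 passed by limma in either comparison, against 5.89% of all probe sets in A20 and 0.0110% in the clones. At these shares a list of this size may hold no call. None of 13 apoptosome and caspase genes passed in A20 (5 above 0, median -0.46) or in the clones (5 above 0, median -0.15). The shares of all probe sets above 0 were 47.8% in A20 and 50.6% in the clones. The widest differences were 1.38 for Dffb, the apoptotic nuclease, in A20 (SE 0.94, a dim probe set) and 0.75 for Casp9, the initiator of the mitochondrial route, in the clones (SE 0.34). The other 3 Casp9 probe sets differed by 0.16 to 0.32 in the clones.

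With 1 probe set a gene, 5 of 5 caspase inhibitor genes lay below 0 in A20 (median -0.53, against 52.2% of all probe sets) and 4 of 5 in the clones (median -0.33, against 49.4%), without a call. Another kept Xiap probe set lay at 1.28 in A20 and 1.04 in the clones. Birc3, which encodes the inhibitor cIAP2, read 346 with empty vector, 273 under hnRNP-H, 107 in clone B5, 157 in clone D6 and 130 in A20. Both clones and A20 lay below both controls. Its differences were -1.20 in the clones (SE 0.32, limma adjusted p = 0.788) and -1.25 in A20 (SE 0.39, limma adjusted p = 0.110).

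Of 13 death receptor genes 8 were kept. None passed in A20 (7 above 0, median 0.42) or in the clones (6 above 0, median 0.33). Of all probe sets, 47.8% lay above 0 in A20 and 50.6% in the clones. The Fas probe set used, for the receptor that activates caspase-8, read at most 4.07 in the AxJ lines and 26.7 in A20, a difference of 1.99 (SE 0.99, limma adjusted p = 0.324), and was kept through A20 alone. A control probe set for Fas, left out of the fit, read 35.7 in B5 and 39.5 in A20 and at most 6.95 on the other arrays. Tnfrsf1a, a TNF receptor, differed by 1.11 in the clones (SE 0.65), while its other probe set differed by -0.87. The first ran from 0.076 without hnRNP-H to 2.19 without empty vector. Of 13 partners that act on the proteins after translation, none passed in A20 (9 above 0, median 0.07) or in the clones (3 above 0, median -0.17). The widest were Vdac1, a mitochondrial channel, at 0.74 in A20 (SE 0.78) and Ywhaz, a 14-3-3 protein, at 0.63 in the clones (SE 0.50).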

How the data were processed

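Values were linear intensities as deposited. The authors' intensities share a trimmed mean of about 150.1 on each array (2 percent left out at each end). The software behind them is not given in the sources used here. The number of arrays limits the precision. Symbols came from the array annotation, updated through gene identifiers. Of all probe sets, 10855 had 1 symbol, 396 several and 1237 none. The 66 control probe sets were left out.

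Because the A20 median lay -11.6 percent from the mean median, past a limit of 10 percent, arrays were quantile normalised. After normalisation, probe sets had to exceed 21.8, the 40th percentile, on at least 1 array. To each value 6.55, the 20th percentile, was added before log2. limma 3.58.1 in R 4.3.3 (lmFit, eBayes with an intensity trend) fitted 3 coefficients over 5 arrays, with 2 residual and 6.51 prior degrees of freedom. The lone A20 array was given the spread of the AxJ lines. Tests are two-sided with a threshold of 0.05. The residual spread behind the p-values is that between empty vector and hnRNP-H and that between B5 and D6. It may be technical or come from transgene or clone, and A20 adds nothing to it. A single value set 2 against 2 allows no exact p below 1 in 3. The fit was also run on simulated data in which all arrays had the same spread for a probe set. That run cannot check the spread assumed for A20.

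Members and lists were chosen with earlier results of these data known. All member probe sets are named. From each other list, represented by 1 probe set per gene (highest mean log2), the genes past the threshold are named, up to 4, or otherwise the 1 with the widest difference. Alternatives covered the pseudocount, filter, scaling, trend, grouping, a block and each AxJ array left out, with the remaining arrays normalised again.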

Additional observations from a re-analysis of the deposited data

How the results depend on the processing

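Of 459 differences recomputed for the members and the named pathway genes, 429 kept their direction and side of the threshold, and the rest are given here or in the report. The Bik call in A20 held under every alternative that kept both controls. With 1 control left, Bik differed by -4.93 without empty vector and by -4.43 without hnRNP-H. Members passing in A20 numbered 1, but 2 with a pseudocount of 1, as deposited, after median scaling and against all 4 AxJ arrays. There 99419_g_at of Bcl2l11 joined, with differences of -2.82, -2.48, -2.36 and -2.19. Leaving out a control leaves 1 array a side in the A20 comparison, so calls there, that of Bik included, are not counted. The residual spread is then that between B5 and D6. Without empty vector, A20 differed by -3.09 for 99418_at and -2.72 for 99419_g_at of Bcl2l11, against -1.01 and -1.71 without hnRNP-H. Without hnRNP-H, it differed by 1.78 for Bcl2l1 and 1.89 for 99670_at of Bad, against 0.88 and -0.50 without empty vector. Members passing in the hnRNP-F clones stayed at 0 under every alternative run.

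Over all probe sets, 536 passed in A20, but 309 without the filter and 146 without the intensity trend. Leaving out an array gave 287 (without D6) to 694 (without hnRNP-H), and 326 without B5. The split of higher to lower calls was 263 to 273, but 358 to 191 after median scaling. In the clones 1 passed, but 0 without the filter or the trend, and 1 to 3 with an array left out (3 without D6). Past 2-fold, hnRNP-H against empty vector gave 1653 (908 higher, 745 lower), but 508 with a pseudocount of 32, and 756 higher to 1022 lower as deposited. D6 against B5 gave 1089, but 199 with a pseudocount of 32. The deposited scaling moved the median of all A20 differences by -0.11.

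Signs turned for members near 0. In A20, 161500_i_at of Bad was 0.12 after median scaling, 0.045 against all 4 AxJ arrays and -0.39 to 0.30 with an array left out. 98870_at of Bcl2 was 0.017 after median scaling and -0.48 to 0.15 with an array left out, 100988_at of Bcl2l11 -0.17 to 0.58 and 99670_at of Bad -0.50 to 1.89. In the clones, Mcl1 was -0.000188 as deposited and -0.38 to 0.41 with an array left out. On leaving out an array, Bik ran from -0.18 to 0.45, 161500_i_at of Bad from -0.53 to 0.15, 98870_at of Bcl2 from -0.054 to 0.57, 99418_at of Bcl2l11 from -0.88 to 1.13, 99419_g_at from -0.52 to 0.44, 100988_at from -0.38 to 0.37 and Ywhaz from -0.25 to 1.53. Fas passed in A20 without the filter (limma adjusted p = 0.0494). The class means with other probe sets for Bad and Bcl2l11, in the report, were chosen after seeing the data. The cause of these changes was not tested. No paired analysis was possible because the labels number no replicates that the groups share. Probe sets near 6.55, such as Bik and 99419_g_at in A20, give a difference whose size the added value sets.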
